A study of Ovis aries with 6 samples.

Results

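miR-140 and miR-455 are microRNAs (miRNAs) known from cartilage and connective tissue, and the levels of both arms of their hairpins were examined here in sheep muscle. Members were chosen by name: every entry of the count table named miR-140 or miR-455, with or without an arm, after the species prefix was removed, and of several rows under 1 name only that with the most counts was used. This gave 4 names, miR-140-5p, miR-140-3p, miR-455-5p and miR-455-3p, from 6 rows, out of 10430 names from 11161 rows. Small RNA had been sequenced from the longissimus muscle of sheep of 2 breeds, 3 libraries of Qianhua Mutton Merino (QHMM) and 3 of Small Tail Han (STH), both kept under natural conditions. The labels name no treatment other than the breed and give neither age nor sex. They do not tie libraries to animals, so that the p-values here concern only the spread among libraries, which may be technical. The totals per library ran from 8062231 to 11282332 counts over all rows, and the fibre miRNAs miR-133 and miR-206-3p stood at means of 113352 and 35912 CPM (counts scaled to a common library total, taken over 1 row per name), as muscle tissue has.

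A miRNA hairpin is cut by Dicer into a short duplex, of which an Argonaute protein keeps 1 strand, the guide, while the other is mostly broken down. The arms of a hairpin, 5p and 3p, carry different seeds, the bases by which a miRNA finds its targets, so that the choice of arm decides which mRNAs are repressed. miR-140 lies in an intron of WWP2, which encodes a ubiquitin ligase, and is known for its role in cartilage development, where Adamts5, a cartilage-degrading protease, is among its targets. miR-455 lies in an intron of COL27A1, a fibrillar collagen gene of cartilage, and the transcription factor SOX9 is known to drive both miRNAs in chondrocytes. Muscle holds connective tissue sheaths besides fibres. In whole muscle, fewer cells of a type and less of a miRNA per cell cannot be told apart.

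The sequences listed for the 4 members are shown here because the seed differs between the arms and between the rows of 1 name. Capitals mark the seed, bases 2 to 8 from the 5′ end.
miR-140-5p: cCAGTGGTtttaccctatggta
miR-140-3p: aCCACAGGgtagaaccacgga
miR-455-5p: gTATGTGCctttggactaca
miR-455-3p: gCAGTCCAtgggcatataca
The miR-140 arms, 22 and 21 nt long, stand at 1 predicted locus on chromosome 14, and the miR-455 arms, each of 20 nt, at 1 predicted locus on chromosome 2 (build Oar_v3.1 in the submitters' processing notes). The table gives no start or end for these loci. In both hairpins the 3p arm carried the caller's label mature and the 5p arm the label star, its term for the minor strand. The 5p arms and miR-140-3p were matched to rat names and miR-455-3p to a human name.

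Each 5p name also had a row under its rat entry that began 1 nt later, which moves the seed by 1 base.
miR-140-5p, rat row: cAGTGGTTttaccctatggtag
miR-455-5p, rat row: tATGTGCCtttggactacatcg
The rat row of miR-140-5p had 1 count over all 6 libraries, against 6351 for the row that stood. The rat row of miR-455-5p had 3 counts against 623. Which start the sheep miRNAs have cannot be read from this, since no source used here says how reads were shared between a predicted locus and a known entry. Among the other 11155 rows, 0 shared an unbroken run of at least 15 nt with a member on either strand. A copy that differs near its middle has no such run and would be missed. With the starts listed, the seeds of the rows that stood were nearly private to them, and 0 other known miRNA names carried them. Unnamed predicted loci with the seed of miR-140-3p, miR-455-5p and miR-455-3p had 4, 2 and 14 counts in total, and the seed of miR-140-5p had no other entry.

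The listed arms of each hairpin paired along most of their length. RNAduplex placed 19 base pairs between the miR-140 arms (10 G–C, 8 A–U and 1 G–U) with a minimum free energy of -29.6 kcal/mol. For the miR-455 arms it placed 17 pairs (8 G–C, 7 A–U and 2 G–U) with -26.5 kcal/mol. At the end of the duplex that holds the 5′ base of the 5p arm, 3 of the first 4 pairs were G–C in miR-140 and 1 of 4 in miR-455, while at the other end 2 of 4 were G–C in both. These are calculated values for the listed sequences without their loop.

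The 3p arm was the abundant product of both hairpins, and miR-140 was the more abundant hairpin in every library. miR-140-3p had 1986, 2233 and 1647 CPM in the QHMM libraries (replicates 1, 2 and 3, in this order throughout) and 3110.35, 2835 and 1807 CPM in the STH libraries. It ranked 44th of all names by mean CPM, and its breeds overlapped, with STH replicate 3 inside the QHMM range. miR-455-3p had 394, 355 and 222 CPM in QHMM and 369.9, 231 and 297 CPM in STH, at rank 114, and all 3 STH libraries lay within the QHMM range. miR-140-5p had 225, 103 and 178 CPM in QHMM and 154, 135 and 99.6 CPM in STH, at rank 160. QHMM replicate 2 lay near the lowest STH library and the other QHMM libraries above all 3 of STH. miR-455-5p was the scarcest arm, with 27.8, 12.4 and 15.6 CPM in QHMM and 11.5, 5.83 and 13.6 CPM in STH, at rank 464. Its lowest library, STH replicate 2, rested on 36 counts.

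**Figure D1:**
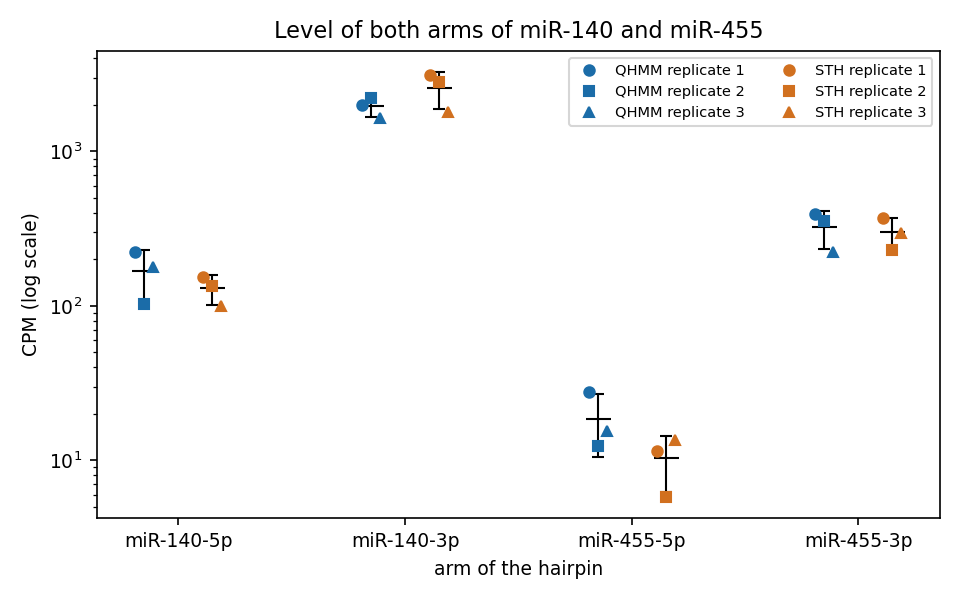
CPM (log scale) of the 4 arms by breed; each symbol is 1 library, and the black marks show the mean of 3 libraries with its SD. miR-140-3p lies highest in every library and miR-455-5p lowest, and for each arm the breeds overlap.

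miR-140 exceeded miR-455 by a factor that differed among libraries. Summed over both arms, the count of miR-140 was 5.24, 6.37 and 7.67 times that of miR-455 in QHMM. In STH it was 8.56, 12.6 and 6.14 times. The order of the 4 arms, miR-140-3p over miR-455-3p over miR-140-5p over miR-455-5p, was the same in each of the 6 libraries. Over the libraries the coefficient of variation was 25.8% for miR-140-3p, 23.5% for miR-455-3p, 32.0% for miR-140-5p and 50.7% for miR-455-5p, where the median over 153 known names of at least 100 CPM was 24.5%. The abundant arms thus varied about as much as other miRNAs of that level. Levels of different miRNAs also depend on how well each is ligated and amplified, and are described here without a test.

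Arm choice was measured within each library as the share of 3p reads among the reads of both arms, a measure that does not depend on library size. For miR-140 the 3p share was 89.8%, 95.6% and 90.3% in QHMM and 95.3%, 95.5% and 94.8% in STH. For miR-455 it was 93.4%, 96.6% and 93.45% in QHMM and 97.0%, 97.5% and 95.6% in STH. QHMM replicates 1 and 3 had the lowest 3p share in both hairpins, and QHMM replicate 2 lay above all STH libraries for miR-140 and within the STH range for miR-455. Counting error was small beside this spread: the Wilson 95% interval was 89.4% to 90.3% for miR-140 in QHMM replicate 1, with 16685 reads of both arms, and 95.2% to 95.9% in QHMM replicate 2, with 13020. For miR-455 in the library with the fewest reads, STH replicate 2 with 1460, it was 96.6% to 98.2%. Reads carry no molecular identifiers, so the intervals cover counting error only.

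**Figure D2:**
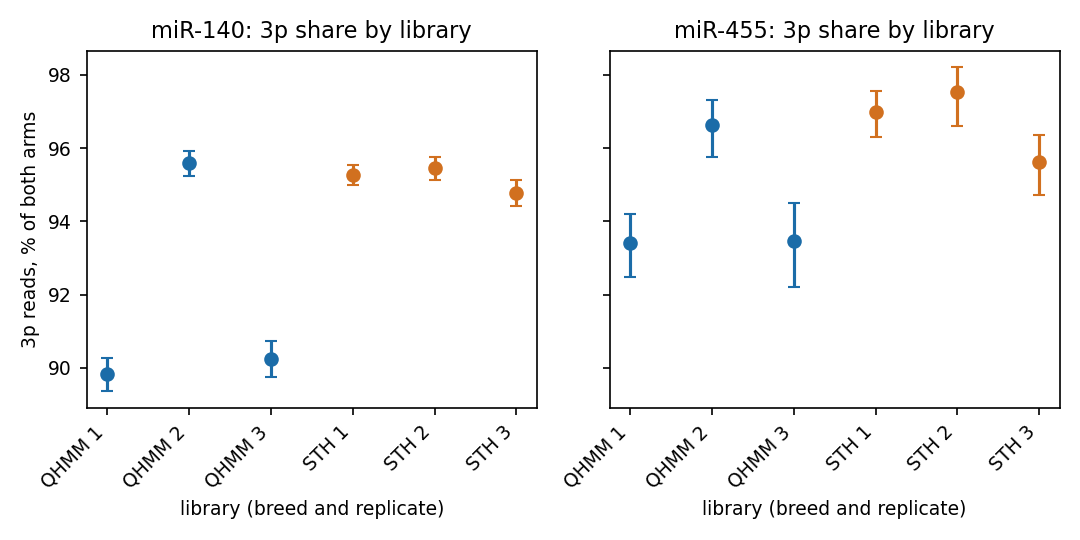
Share of 3p reads among the reads of both arms (%, axis not starting at 0) for miR-140 (left) and miR-455 (right) in each library; bars are Wilson 95% intervals. In both hairpins QHMM 1 and QHMM 3 lie below the other 4 libraries.

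The ratio of 3p to 5p counts was higher for miR-455 than for miR-140 in every library. The count of 3p over that of 5p was 8.83, 21.7 and 9.26 for miR-140 in QHMM and 20.1, 21.0 and 18.1 in STH. For miR-455 it was 14.2, 28.6 and 14.3 in QHMM and 32.2, 39.6 and 21.8 in STH. On the log2 scale (0.5 added to each count), miR-140 lay below miR-455 in 6 of 6 libraries, by a mean of -0.59 ± 0.23 (SD, n = 6; exact permutation test with sign flips, two-sided, p = 0.031, the smallest p that 6 pairs allow). The difference was much alike in the breeds, with means of -0.56 in QHMM and -0.61 in STH. A bias of ligation or amplification that is constant for a sequence would give the same sign in every library, so the test compares the counted ratios and not the arm choice in the cells. With 1 library left out, 5 pairs allow no p below 0.0625, and the mean ran from -0.65 to -0.52.

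Both hairpins were biased to 3p, among hairpins of which many were strongly biased to 1 arm. Of 104 hairpins with both arms named and at least 10 counts on average in each arm, 41 had more 3p than 5p, and the median log2 ratio of 3p over 5p was -1.51. Without regard to direction, the median of the absolute log2 ratio was 2.91. The ranks hold among these 104 of 696 hairpins with both arms named, since hairpins with a scarcer minor arm were left out. The mean log2 ratio of miR-140, 3.95, ranked 15th from the most 3p-biased and that of miR-455, 4.53, ranked 12th. Their ratios also varied more among the 6 libraries than that of a typical hairpin, with SDs of 0.61 for both, ranks 20 and 19 of 104, where the median SD was 0.38. The median log2 ratio over all 104 hairpins stayed between -1.47 and -1.19 in the 6 libraries, -1.28 in both QHMM replicates 1 and 3. This signed median covers hairpins biased to either arm, so it does not show whether minor arms as a whole gained or lost reads.

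Of the 4 arms, 0 passed the comparison of the breeds with edgeR (quasi-likelihood test over 1274 names, Benjamini-Hochberg adjusted p under 0.05), in which 28 names, 2.20%, passed. With DESeq2 0 passed as well. miR-455-5p came nearest, averaging 18.6 ± 8.15 CPM in QHMM (SD, n = 3) against 10.3 ± 4.02 CPM in STH (SD, n = 3). Its log2 fold change, QHMM over STH, was 0.82 (standard error 0.37, unadjusted p = 0.0444, adjusted p = 0.355 from edgeR), where an unadjusted p under 0.05 was found for 13.7% of the names. miR-140-3p was at -0.40 (95% interval -0.98 to 0.18, adjusted p = 0.547 from edgeR), averaging 1955 ± 294 CPM in QHMM (SD, n = 3) against 2584 ± 687 CPM in STH (SD, n = 3). miR-140-5p was at 0.34 (interval -0.33 to 1.001) and miR-455-3p at 0.12 (interval -0.51 to 0.75). The intervals leave room for a difference in either direction for these 3 arms. In CPM the breeds did not overlap for 17.2% of the names tested, and for 0 of the 4 arms.

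In both hairpins the estimate for the 5p arm was above that for the 3p arm, which is a lower 3p to 5p ratio in QHMM. The log2 ratio of miR-140 was 3.596 ± 0.73 (SD, n = 3) in QHMM and 4.30 ± 0.11 (SD, n = 3) in STH. That of miR-455 was 4.16 ± 0.58 (SD, n = 3) in QHMM and 4.91 ± 0.43 (SD, n = 3) in STH. The arm by breed term of edgeR, fitted over the 104 hairpins with library as a term, was -0.71 for miR-140 (standard error 0.30, unadjusted p = 0.0265, adjusted p = 0.379) and -0.75 for miR-455 (standard error 0.34, unadjusted p = 0.0328, adjusted p = 0.379). Neither passed after adjustment. Of the 104 hairpins, 0 (0%) passed an adjusted p of 0.05 with edgeR and 2 with limma on the log2 ratios, neither of them a member. An unadjusted p under 0.05 was found for 9 hairpins, 8.65%, and both members were among these. The exact permutation test of the log2 ratio, 3 libraries against 3 and two-sided, gave p = 0.40 for miR-140 and p = 0.20 for miR-455, where the smallest p possible is 0.10. The log2 ratios of the breeds did not overlap in 8.65% of the hairpins and overlapped in both members. The median breed difference over the 104 hairpins was 0.071, with 48 of them below 0.

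**Figure D3:**
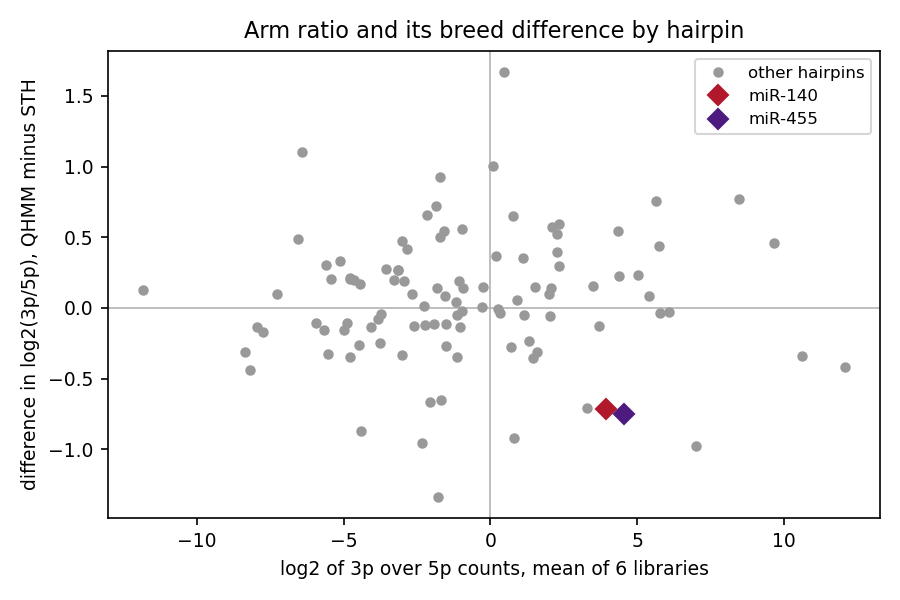
Difference between the breeds in the log2 ratio of 3p over 5p counts (QHMM minus STH, from edgeR) against the mean log2 ratio over 6 libraries for 104 hairpins. miR-140 (3.95, -0.71) and miR-455 (4.53, -0.75) lie side by side among the hairpins rich in 3p and below the line at 0.

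QHMM replicate 2 decided whether the breeds were called different in arm choice. Without it, the arm by breed term was -1.13 for miR-140 (standard error 0.27, adjusted p = 0.00161 from edgeR) and -1.06 for miR-455 (standard error 0.35, adjusted p = 0.0345 from edgeR), and both passed among 9 of 109 hairpins, 8.26%. Without any other single library the term ran from -0.77 to -0.48 for miR-140 and from -0.999 to -0.57 for miR-455, and neither passed. The labels give no reason to leave this library out. It had the smallest total, 8062231 counts over all rows.

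**Figure D4:**
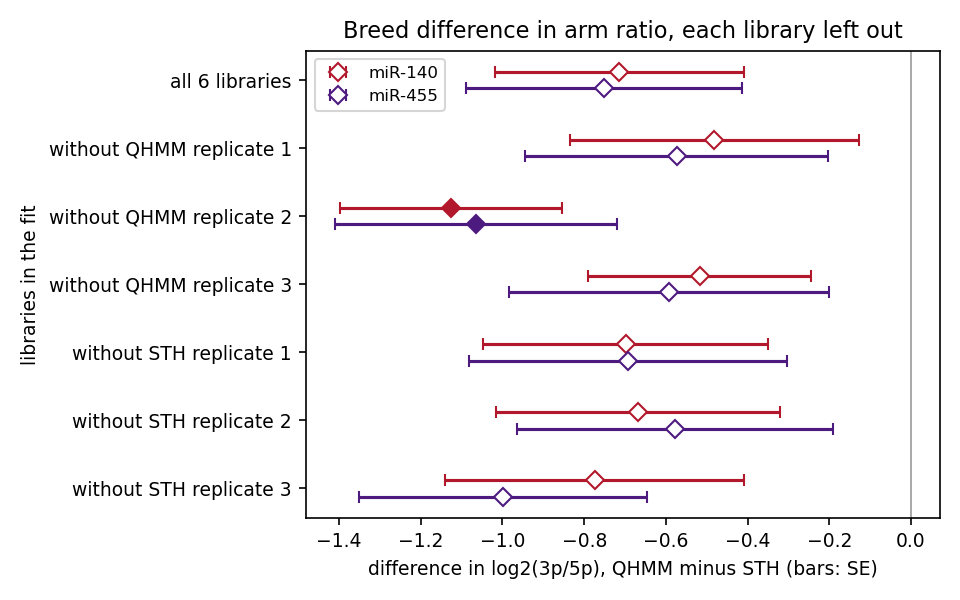
Breed difference in the log2 ratio of 3p over 5p counts (QHMM minus STH) for miR-140 and miR-455 with all 6 libraries and with each left out; bars are standard errors from edgeR and filled symbols have an adjusted p under 0.05. All estimates lie below 0, and filled symbols stand only at the fit without QHMM replicate 2, -1.13 and -1.06.

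The summed levels of muscle fibre and endothelial marker miRNAs, each carried mostly by 1 name, also set QHMM replicates 1 and 3 apart. The 7 muscle fibre miRNAs of a marker list, mostly miR-133, summed to 195359 and 177748 CPM in QHMM replicates 1 and 3, to 127308 CPM in QHMM replicate 2 and to between 134883 and 138149 CPM in STH. Within this list 3 names had values above 0 (QHMM over STH) and 4 below, and 1 of 7 passed with edgeR. This was miR-208b-3p, encoded in a slow myosin gene, with a log2 fold change of 1.27 (adjusted p = 0.0419 from edgeR). miR-499-5p, also from a slow-type myosin gene, was at 1.35 (adjusted p = 0.0782 from edgeR), and miR-206-3p at -0.27 (adjusted p = 0.582 from edgeR). DESeq2 called 2 of the 7. miR-1 entered the list by its row miR-1-3p, with a mean of 392 CPM, and the row under the rat name miR-1b was not part of it. That row was at a log2 fold change of 0.014 (adjusted p = 0.979 from edgeR). The 2 endothelial names, led by miR-126a-3p of vessel walls, summed to 13794 and 9967 CPM in QHMM replicates 1 and 3, to 22832 CPM in QHMM replicate 2 and to between 18719 and 20415 CPM in STH. The 4 red blood cell names, led by miR-451-5p, showed another pattern, with 18885, 19771 and 83743 CPM in QHMM and 7181 to 13702 CPM in STH, and the row miR-451a was at or near 0 in both breeds (means of 0 and 0.0995 CPM). The fibroblast names miR-199a-3p and miR-214-3p summed to 2109, 1982 and 2767 CPM in QHMM and to 1887 to 3617 CPM in STH. The part of these differences in the arm ratios was not tested.

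A list of 15 other miRNAs of connective tissue and cartilage gave the surroundings of the members. With edgeR, 14 of its names could be tested and 0 passed in either direction, with 2 at an unadjusted p under 0.05. DESeq2, which called 3.85% of all names, called 1 of the 14, miR-365-3p, at 2971 ± 1504 CPM in QHMM (SD, n = 3) against 1185 ± 325 CPM in STH (SD, n = 3); its adjusted p was 0.0889 with edgeR, and it is named after its values were seen. Of the 14, 5 had values above 0 (QHMM over STH) and 9 below, with a median log2 fold change of -0.14 beside 0.031 over all names tested. The most abundant were miR-145-5p of smooth muscle, at 28000.2 ± 4837 CPM in QHMM (SD, n = 3) against 32338 ± 4945 CPM in STH (SD, n = 3), and miR-21, raised in fibrosis, at 8202 ± 2581 CPM in QHMM (SD, n = 3) against 19317 ± 11915 CPM in STH (SD, n = 3). The next was miR-143, which is made from 1 transcript with miR-145, at 10988 ± 1353 CPM in QHMM (SD, n = 3) against 12857 ± 1960.36 CPM in STH (SD, n = 3). Of the same list, miR-29a, which represses collagens, had a mean of 4452 CPM, above miR-140-3p at 2269.77 CPM. It is named here after its value was seen.

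The known miRNAs whose level ran most in parallel with an abundant arm were found by the SD over 6 libraries of the log2 ratio of CPM, among 150 known names of at least 100 CPM. For miR-140-3p these were miR-3586-3p (SD 0.15), miR-151a-3p (SD 0.16) and miR-3557-5p (SD 0.18). Of these, miR-3586-3p and miR-151a-3p stood at predicted loci with neighbouring numbers on chromosome 9 and need not be independent. Whether they are arms of the same hairpin was not examined. For miR-455-3p the names were miR-127 (SD 0.15), miR-342-3p (SD 0.17) and miR-494-3p (SD 0.18). Between miR-140-3p and miR-455-3p themselves the SD was 0.45. This is a description, and the lowest of 150 values are low in part because they were picked. The SD of 0.45 can therefore not be judged against them, and its place among all 150 values was not examined.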

How the data were processed

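Small RNA of sheep longissimus muscle was gel-selected by size, and single-end reads of 3 QHMM and 3 STH libraries came from an Ion Proton. The authors deposited raw counts per mature sequence, not normalized, 1 column per library. DESeq and, as build, Oar_v3.1 appear in the submitters' processing notes. No source used here names the aligner, the miRNA caller or how a read with several matches was counted.

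The breed comparison used edgeR 4.0.16 under R 4.3.3 (robust quasi-likelihood test, TMM factors, filterByExpr, 1274 names). The arm by breed term was fitted with edgeR over 104 hairpins with library as a term. An arm without a name of its own was given one by a shared run of at least 15 nt. Alternatives used DESeq2 1.42.0 and limma 3.58.1, other filters and factors, summed rows, a replicate block and each library left out. Duplexes come from RNAduplex 2.7.2 and other values from Python 3.11.15 with scipy 1.17.1. Counts of same-breed libraries differed by far more than sampling noise (chi-square over its degrees of freedom at least 75.7), so no library was a re-count of another. Libraries made separately from 1 animal can also differ by more than this noise, so they were not excluded. The fits were tested on simulated data. For the breed comparison over 1233 names, edgeR called 20.8% of the names given a 2-fold change, 84.8% at 4-fold and 0.674% of unchanged names. For the arm by breed term only 4-fold differences were simulated, with a spread that was set and not estimated. There edgeR called 100% of the changed hairpins and 0% of the unchanged, and limma 100% and 2.70%. Smaller differences, such as those of the members, were not simulated. The members, the lists and the tests were chosen with earlier results of these data known. Named are the members, rows that share 15 nt with them, the 3 names that varied most in parallel with each abundant arm, and of the list the 3 most abundant and any past the threshold.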

Additional observations from a re-analysis of the deposited data

How the results depend on the processing

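The number of names that differed between the breeds, 28 of 1274, changed with the setting, as did the number of names tested. It was 64 of 9972 without the low-count filter and 8 of 930 where every library had to hold at least 10 counts. It was 6 of 487 with known names only and 49 of 1274 with DESeq2. With each library left out it ran from 16 to 35, the latter of 1365 without STH replicate 1. It was 16 of 1368 without QHMM replicate 3, 18 of 1373 without STH replicate 2 and 16 of 1345 without STH replicate 3. The cause of these changes was not tested for any setting. The number of hairpins that differed in arm choice, 0 of 104, was 2 with limma on log2 ratios, 1 with the replicate block and 0 to 9 with each library left out. It was 0 of 95 when only hairpins with both arms at 1 locus were kept, an alternative chosen after seeing the data. The arm by breed term ran from -1.13 to -0.48 for miR-140 and from -1.06 to -0.57 for miR-455 with each library left out, was below 0 in 22 of 22 alternative values and passed only without QHMM replicate 2. The difference between the hairpins ran from -0.65 to -0.52 with each library left out, where no p under 0.05 is possible. The level of miR-140-3p fell from 2269.77 to 1634.85 CPM and that of miR-455-3p from 311 to 224 CPM with summed rows and with CPM of all rows, since the total then holds more rows. None of 56 alternative values of the 4 arms passed in the breed comparison, and 54 kept their sign. miR-455-3p, near 0, ran from -0.051 to 0.31 with each library left out and changed sign to -0.051 without QHMM replicate 2 and to -0.0021 without STH replicate 2. A second row existed only for the 5p names, with 1 and 3 counts, so the hairpins were not compared on second rows. With the replicate block, the adjusted p of the arm by breed term was 0.276 for both hairpins. Same-numbered libraries deviated together with correlations of 0.061, 0.24 and 0.12. Among the libraries of the other breed, each correlated highest with that of its number, only weakly for replicate 1, and no label states a pairing. The block gave 26 calls between the breeds in place of 28. Depth limits miR-455-5p most, with 36 to 210 counts per library.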

Other observations

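The name of the sequence that varied most in parallel with miR-140-3p was looked up after the ranking was seen. The row that stands for miR-3586-3p holds 20 nt of the 21 nt listed for rat miR-151-5p, whose own row had 16 counts.
miR-3586-3p: tcgaggagctcacagtctag
miR-151-5p, rat row: tcgaggagctcacagtctagt
The row named miR-3586-3p had 111122 counts in total. Its log2 ratio of CPM to miR-140-3p lay between 0.053 and 0.41 in the 6 libraries.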
